A study of Mus musculus with 19 samples.

Results

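The genes of the enzymes that write, maintain and remove DNA methylation were examined for the mark that some of these enzymes make. The 10 genes were *Tet1*, *Tet2*, *Tet3*, *Dnmt1*, *Dnmt3a*, *Dnmt3b*, *Uhrf1*, *Tdg*, *Idh1* and *Idh2*, out of 21000 protein-coding genes with a curated RefSeq transcript, and all 10 were found. They were chosen by function. For each gene the window was the span of its curated transcripts plus 5 kb upstream of the first transcription start site (TSS), in mm10 (GRCm38), and the measurement was the percent of the window covered by 5-hydroxymethylcytosine (5-hmC) peaks.

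The peaks came from antibody precipitation of hydroxymethylated DNA (hMeDIP) of isolated cardiomyocytes (CMCs) of C57BL/6J mice at 4 points, with 2 biological replicates each. The points were E14.5 embryos, neonatal pups of 1 to 2 days, adults of 2 months, and adults operated 1 week earlier for transverse aortic constriction (TAC), in which a ligature on the aortic arch exposes the left ventricle to pressure overload. All animals were male, no genetic alteration is given for these groups, and no sham-operated group was used here as a control for the surgery. E14.5 and neonatal CMCs came from digested ventricles after steps in which other cells stuck to the dish, and adult and TAC CMCs from the perfused left ventricle after settling by gravity, so the way the cells were isolated cannot be told apart from age. These preparations were enriched for CMCs but not pure. The 8 peak lists held between 104215 and 153637 peaks, all with the same score of 1, so a peak was present or absent and its height was unknown, as was the number of reads behind it. In DNA from many cells, a mark carried by more cells and a mark denser in each cell cannot be told apart either.

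5-hmC arises when the TET proteins oxidise 5-methylcytosine, using 2-oxoglutarate and iron. DNMT3A and DNMT3B place new methyl groups on CpG sites, and DNMT1 copies the pattern after replication, brought to the new strand by UHRF1. The DNA glycosylase TDG cuts out the further oxidation products of 5-hmC, after which base excision repair restores an unmodified cytosine. IDH1, in the cytosol, and IDH2, in mitochondria, make 2-oxoglutarate. In many tissues 5-hmC lies over the bodies (GB) of transcribed genes rather than at CpG-rich start sites.

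The sequences below are those on which peaks of different replicates met most often. Regions of at least 50 bp that lay under peaks in 6 or more of the 8 lists were taken, a rule chosen after the values were seen, and the stretch of 150 bp with most CpG sites is shown for the region shared by most lists in each gene (the widest where several tied), and for both regions of *Dnmt3a* that reached all 8. They are written 5′ to 3′ on the strand of the gene, from the GRCm38 reference, with every CpG in capitals.
Tet1, intron 3 (chr10:62842021-62842170, minus strand): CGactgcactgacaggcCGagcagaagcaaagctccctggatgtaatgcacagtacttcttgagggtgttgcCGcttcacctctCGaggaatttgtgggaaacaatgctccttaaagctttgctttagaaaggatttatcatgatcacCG
Tet2, intron 2 (chr3:133513223-133513372, minus strand): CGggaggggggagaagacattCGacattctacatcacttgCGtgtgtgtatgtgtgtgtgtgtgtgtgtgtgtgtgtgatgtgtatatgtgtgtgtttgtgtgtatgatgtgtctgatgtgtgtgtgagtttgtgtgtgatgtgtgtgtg
Tet3, coding exon (chr6:83454753-83454902, minus strand): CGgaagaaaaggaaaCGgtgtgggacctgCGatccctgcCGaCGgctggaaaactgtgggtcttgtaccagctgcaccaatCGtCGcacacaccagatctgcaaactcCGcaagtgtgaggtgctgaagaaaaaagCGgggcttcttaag
Dnmt1, intron 1 (chr9:20946573-20946722, minus strand): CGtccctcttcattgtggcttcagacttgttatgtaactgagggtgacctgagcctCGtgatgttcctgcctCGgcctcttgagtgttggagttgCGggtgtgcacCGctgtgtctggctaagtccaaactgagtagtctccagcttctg
Dnmt3a, intron 4 (chr12:3871676-3871825, plus strand): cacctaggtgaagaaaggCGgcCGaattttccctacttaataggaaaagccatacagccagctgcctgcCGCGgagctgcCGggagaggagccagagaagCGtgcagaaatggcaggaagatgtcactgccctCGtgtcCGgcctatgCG
Dnmt3a, coding exon (chr12:3873287-3873436, plus strand): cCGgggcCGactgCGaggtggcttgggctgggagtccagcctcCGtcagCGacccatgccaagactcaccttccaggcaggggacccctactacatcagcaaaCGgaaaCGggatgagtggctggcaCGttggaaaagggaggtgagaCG
Idh2, intron 3 (chr7:80100452-80100601, minus strand): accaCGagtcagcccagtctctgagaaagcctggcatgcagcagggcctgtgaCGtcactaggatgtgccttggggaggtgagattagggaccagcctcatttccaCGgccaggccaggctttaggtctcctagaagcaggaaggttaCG

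The *Tet3* stretch, with 9 CpG sites, was centred 1564 bp inside the gene in a coding exon near the 5′ end. Its region of 1414 bp was under a peak in 7 lists, the exception being TAC replicate 2. Both *Dnmt3a* stretches also held 9 CpG sites, and their regions of 1262 and 1235 bp were the only ones of the 10 windows reached by peaks of each of the 8 lists. The *Tet2* stretch, with 3 CpG sites, ran into a repeat of alternating G and T.

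Another 4 sequences mark places near start sites. The first lies under the peaks of both neonatal and both adult replicates before the internal TSS of *Dnmt3a*, and the next ones lie under the intron peaks of *Idh1* found in 5 lists and of *Dnmt3b* found in 4. The last is the CpG-rich promoter of *Idh2*, taken from RefSeq and printed for contrast up to the base before the TSS, where no list had a peak.
Dnmt3a, before the internal start site (chr12:3891027-3891176, plus strand): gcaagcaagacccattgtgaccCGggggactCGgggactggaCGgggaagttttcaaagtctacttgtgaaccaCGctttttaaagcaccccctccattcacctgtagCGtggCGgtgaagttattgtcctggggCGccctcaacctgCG
Idh1, intron 1 (chr1:65185536-65185685, minus strand): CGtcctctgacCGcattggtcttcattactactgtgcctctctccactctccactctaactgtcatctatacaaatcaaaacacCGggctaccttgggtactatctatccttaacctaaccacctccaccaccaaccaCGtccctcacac
Dnmt3b, intron 2 (chr2:153651976-153652125, plus strand): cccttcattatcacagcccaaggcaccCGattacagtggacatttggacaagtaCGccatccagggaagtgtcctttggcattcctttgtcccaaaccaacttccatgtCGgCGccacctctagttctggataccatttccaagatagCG
Idh2, promoter (chr7:80115351-80115600, minus strand): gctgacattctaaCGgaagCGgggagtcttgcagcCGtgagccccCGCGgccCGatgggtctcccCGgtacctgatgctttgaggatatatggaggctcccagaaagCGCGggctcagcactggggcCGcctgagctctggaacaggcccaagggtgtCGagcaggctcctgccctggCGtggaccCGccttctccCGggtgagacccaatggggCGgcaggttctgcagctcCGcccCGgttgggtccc

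Coverage differed widely among the genes. *Tet3*, *Dnmt3a* and *Idh2* had mean coverages over the 8 lists of 23.1%, 22.5% and 19.6%, and no other member averaged more than the 8.24% of *Tdg*. *Tet2* followed with 6.82%, *Tet1* with 6.80%, *Uhrf1* with 5.43%, *Idh1* with 4.44%, *Dnmt1* with 4.24% and *Dnmt3b* with 1.38%. The median of all 21000 windows lay between 2.51% and 4.24% in the single lists and the median of the 10 members between 3.78% and 10.2%. Among windows no shorter than the shortest member window (25150 bp, *Uhrf1*), a comparison added after the values were seen, the median lay between 3.06% and 4.89%. The lists overlapped widely in the order of neighbouring genes: *Tet3* and *Dnmt3a* changed places from list to list, as did *Tet1* and *Tet2*, whereas *Dnmt3b* was below both *Tet3* and *Dnmt3a* in each list.

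**Figure D1:**
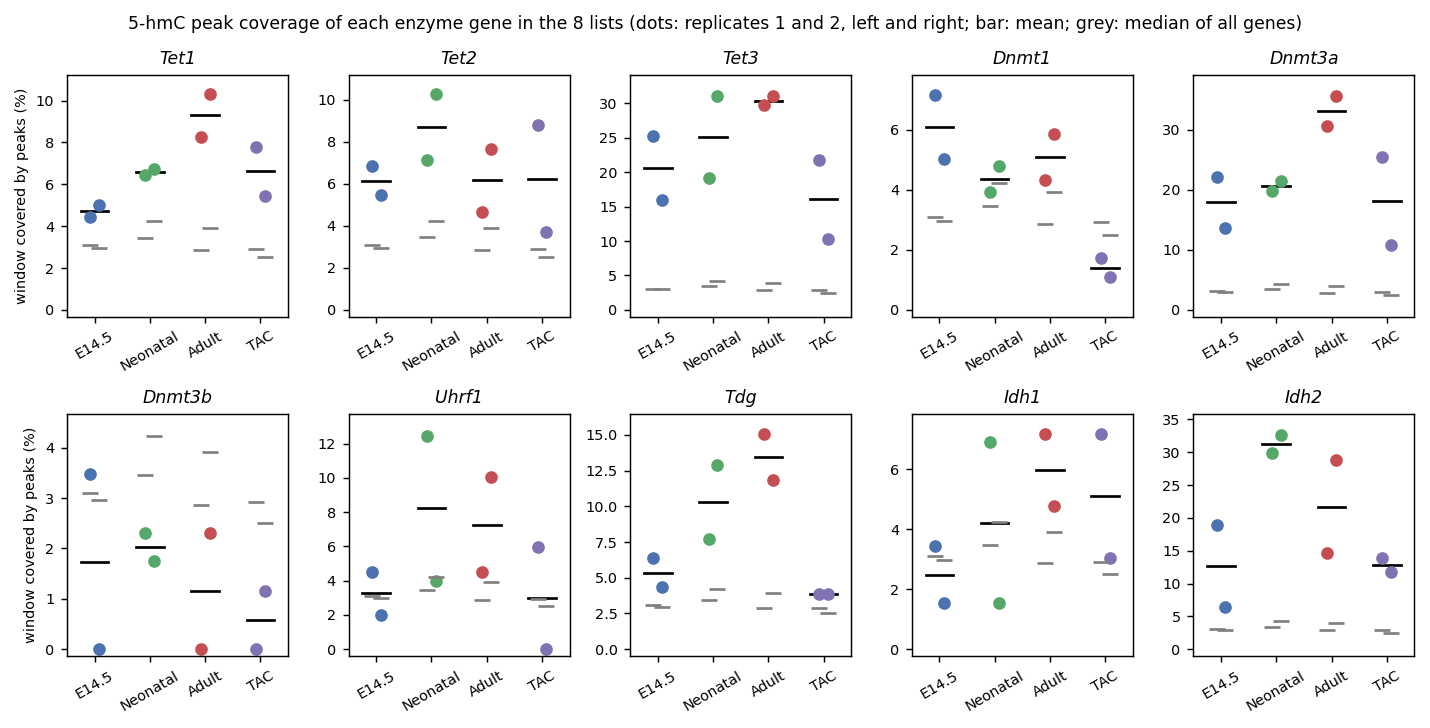
Percent of each gene window covered by 5-hmC peaks (y axis, a different scale in each panel) at the 4 points (x axis), with a dot for each replicate, a black bar for their mean and grey marks for the median of all 21000 windows in the same list. *Tet1*, *Tet2*, *Tet3*, *Dnmt3a*, *Tdg* and *Idh2* lie above the grey marks in each list. The TAC dots of *Tet1*, *Tet3*, *Dnmt1*, *Dnmt3a*, *Tdg* and *Idh2* lie below the adult dots.

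The difference over the 4 points was tested for each window by exact permutation: the 8 samples can be divided into 4 pairs in 105 ways, and the one-sided p was the share of these in which paired samples lay at least as close together as the true replicates, with Benjamini-Hochberg adjustment over 18383 windows whose values were not all equal. No member passed an adjusted p of 0.05, and 0 of all windows tested did (0%). Unadjusted, 1 of the 10 members (*Tdg*) had an exact p below 0.05, against 7.26% of all windows. limma, the moderated linear model run as an alternative on log2(percent + 1), also called 0 members, and 2 had an unadjusted p below 0.05 (*Dnmt1*, adjusted p = 0.423, and *Tdg*, adjusted p = 0.384), where 11.3% of all windows did. The smallest p that the exact test can give is 0.00952, so a window could pass adjustment only if many others also reached that p. The lack of calls therefore does not show that coverage was constant. Between 2 points, each with 2 replicates, the smallest p is 0.333, so single steps are described below by whether both replicates of a point lay above or below both of the point before.

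Of the methylcytosine dioxygenases, *Tet1* (chr10:62804570-62887324, minus strand) was covered by 4.45% and 5.00% in the E14.5 lists, 6.43% and 6.72% in the neonatal lists, 8.28% and 10.3% in the adult lists and 7.80% and 5.44% in the TAC lists. The replicates of each point to the adult lay above those of the point before, and both TAC replicates lay below both adult ones. With each list divided by its mean over all windows, *Tet1* kept only the rise from neonatal to adult and overlapped at the other steps. With the same number of peaks drawn from each list, it overlapped from E14.5 to neonatal. The means rose from 4.72% ± 0.387 (SD, n = 2) at E14.5 to 9.30% ± 1.45 (SD, n = 2) in the adult, with an exact permutation p of 0.0667 over the 4 points and an adjusted p of 0.612. The large coding exon 47 to 49 kb into the gene was first under a peak in the adult lists. Coding sequence was not covered in either E14.5 replicate and covered by 16.2% and 20.6% in the adult. In TAC replicate 1 it was covered by 21.2%, and in TAC replicate 2 not at all. Intron 3 held the places that most lists shared, at 30.5 kb (all E14.5, neonatal and adult replicates) and at 45.1 kb from the TSS. Each TAC replicate had a peak close beside the shared stretch at 30.5 kb, on opposite sides of it.

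*Tet2* (chr3:133463677-133544390, minus strand) was covered by 6.84% and 5.46% in the E14.5 lists, 7.12% and 10.3% in the neonatal lists, 4.64% and 7.68% in the adult lists and 8.80% and 3.70% in the TAC lists. Both neonatal replicates lay above both E14.5 ones, but not once each list was divided by its mean over all windows. From the neonatal point on, the replicates of a point differed by 3.17, 3.04 and 5.10 percentage points, more than the means of the points did (exact permutation p = 0.667). Its peaks gathered in introns 1 and 2, which held 3 places seen in most lists, near 12.5, 26 and 31 kb. Peaks in the 5 kb upstream were found in adult replicate 2 and both TAC replicates and in no other list, and covered 20.04%, 20.04% and 10.02% of it.

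*Tet3* (chr6:83362373-83456392, minus strand) was covered by 25.3% and 15.9% in the E14.5 lists, 19.2% and 31.1% in the neonatal lists, 29.7% and 31.1% in the adult lists and 21.8% and 10.4% in the TAC lists. In each list it ranked above at least 91.1% of all windows. The adult mean of 30.4% ± 0.954 (SD, n = 2) had the closest replicates, and both TAC replicates lay below them, at a mean of 16.1% ± 8.10 (SD, n = 2). The exact permutation p for *Tet3* was 0.324. Peaks lay along the whole gene, 17 to 28 in a list. Coding sequence was covered more than introns in 6 lists, by 61.2% against 23.5% in E14.5 replicate 1 and 72.4% against 25.7% in adult replicate 1. In E14.5 replicate 2 and TAC replicate 2 it was covered less, by 12.4% against 15.2% and 2.55% against 10.9%.

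**Figure D2:**
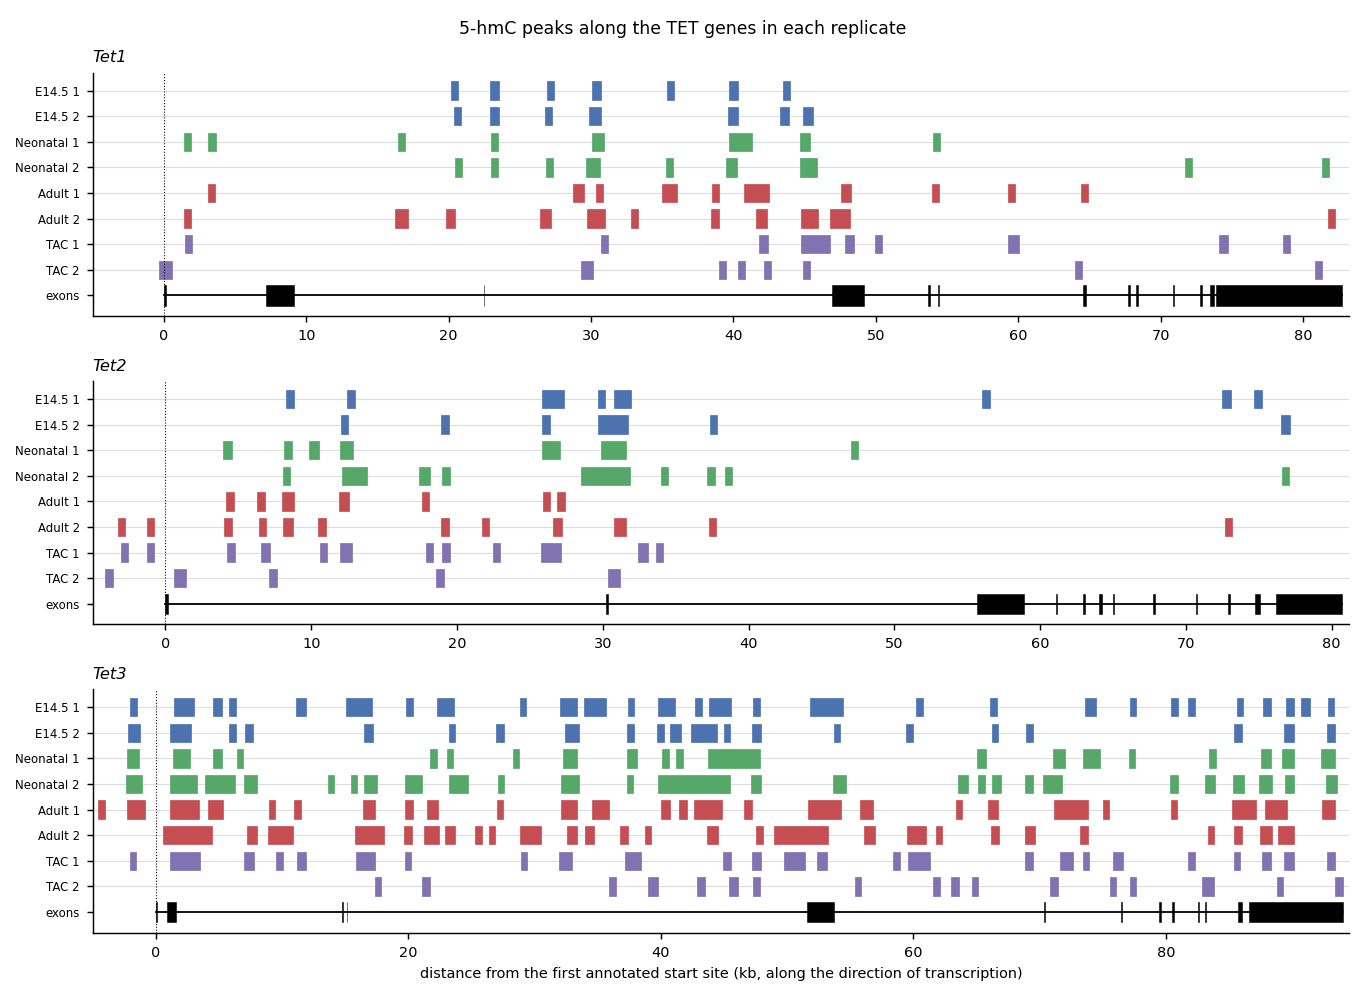
Peaks of each replicate (coloured boxes, 1 row a list) along *Tet1*, *Tet2* and *Tet3*, with exons of all curated transcripts in black and the distance from the first TSS in kb on the x axis. *Tet3* carries peaks along its whole length, *Tet1* mostly 20 to 50 kb into the gene and *Tet2* mostly before 40 kb, and few boxes touch the dotted line at the TSS.

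Of the methyltransferases, *Dnmt3a* (chr12:3806980-3914443, plus strand) was covered by 22.2% and 13.7% in the E14.5 lists, 19.8% and 21.4% in the neonatal lists, 30.7% and 35.7% in the adult lists and 25.4% and 10.9% in the TAC lists. Both adult replicates lay above all 6 others. The neonatal mean was 20.6% ± 1.13 (SD, n = 2) and the adult mean 33.2% ± 3.53 (SD, n = 2), a difference of 12.6 percentage points that exceeds the gap between replicates of either point (1.59 and 4.99 points). TAC replicate 1 and TAC replicate 2 differed by 14.53 points, and the exact permutation p over the 4 points was 0.21. Both replicates shared 14 regions at E14.5, 12 in the pups, 28 in the adult and 11 after TAC. *Dnmt3a* has an internal TSS 84764 bp from the first, which starts the transcript of the short isoform. The kilobase before it was under a peak in both neonatal and both adult replicates and in none of the E14.5 or TAC replicates. The stretch shared by all 4 peaks ran from 885 to 525 bp before that TSS. This contrast depends on the limit of 1 kb. TAC replicate 2 had a peak just outside it (chr12:3890144-3890644) that overlapped the peaks of neonatal replicate 2 and adult replicate 2. The kilobase before the first TSS was touched by a peak in 1 list only, TAC replicate 1 (chr12:3805544-3806044), and that peak ended before the TSS.

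*Dnmt1* (chr9:20907206-20959888, minus strand) was covered by 7.17% and 5.03% in the E14.5 lists, 3.92% and 4.78% in the neonatal lists, 4.34% and 5.87% in the adult lists and 1.74% and 1.09% in the TAC lists. It was the only member whose neonatal replicates both lay below the E14.5 ones, and its TAC replicates, with 2 peaks and 1 peak, were its lowest values. The exact permutation p was 0.0571 and the adjusted p 0.612. The one place shared by 6 lists lay in intron 1 at 13.2 kb, and E14.5 replicate 2 and TAC replicate 2 lacked it. Dividing each list by its mean over all windows put both adult replicates of *Dnmt1* above both neonatal ones.

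*Dnmt3b* (chr2:153649449-153687730, plus strand) had the fewest peaks, 9 in 5 lists. It was covered by 3.47% and 0% in the E14.5 lists, 2.32% and 1.74% in the neonatal lists, 0% and 2.32% in the adult lists and 0% and 1.16% in the TAC lists. One list of each of E14.5, adult and TAC had no peak in the window, and only the neonatal replicates shared a region. Of these peaks, 5 lay in intron 2, between 2.1 and 2.9 kb from the TSS.

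*Uhrf1* (chr17:56303337-56323486, plus strand) was covered by 4.52% and 1.99% in the E14.5 lists, 12.5% and 3.98% in the neonatal lists, 4.49% and 10.02% in the adult lists and 5.98% and 0% in the TAC lists. Replicates differed by 2.52 to 8.47 percentage points and overlapped between all successive points. Only 4 of its 20 peaks overlapped a peak of the other replicate, all in neonatal CMCs.

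**Figure D3:**
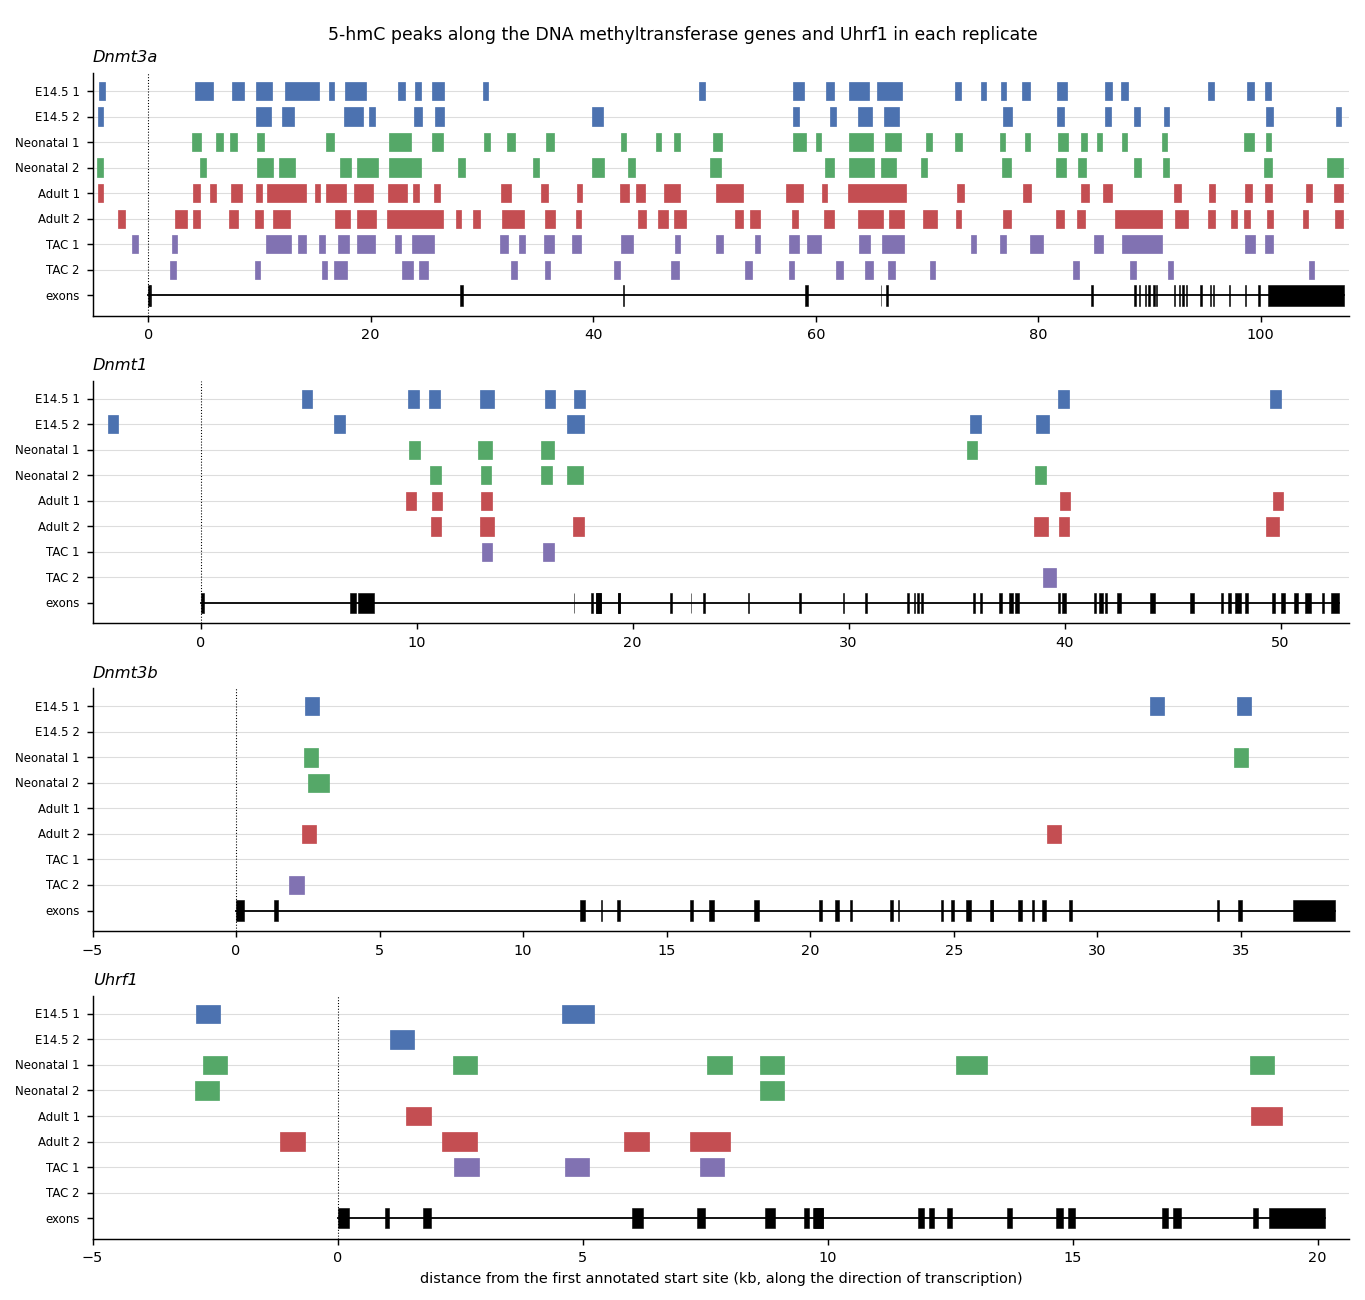
Peaks of each replicate (coloured boxes, 1 row a list) along *Dnmt3a*, *Dnmt1*, *Dnmt3b* and *Uhrf1*, with exons in black and the distance from the first TSS in kb on the x axis, on a different scale for each gene. *Dnmt3a* is marked from end to end, *Dnmt1* mostly in intron 1 and near 40 kb, and *Dnmt3b* at few places.

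*Tdg* (chr10:82629838-82650799, plus strand) was covered by 6.36% and 4.35% in the E14.5 lists, 7.72% and 12.9% in the neonatal lists, 15.1% and 11.8% in the adult lists and 3.86% in each TAC list. Neonatal values lay above E14.5 values, and both TAC replicates lay below all others. The mean was 13.4% ± 2.30 (SD, n = 2) in the adult, and the exact permutation p over the 4 points was 0.0381, which did not pass adjustment (adjusted p = 0.612). The higher coverage of the neonatal replicate 2 and adult lists lay in intron 1, where adult replicate 1 had a single peak of 3410 bp. Each TAC list had 2 peaks of 501 bp, the narrowest width in the 10 windows, and those of replicate 1 and replicate 2 did not overlap. The TSS region was under no peak in any list.

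*Idh1* (chr1:65158616-65186479, minus strand) was covered by 3.45% and 1.52% in the E14.5 lists, 6.89% and 1.52% in the neonatal lists, 7.17% and 4.77% in the adult lists and 7.18% and 3.05% in the TAC lists. Successive points overlapped at each step, while both adult replicates lay above both E14.5 ones. All but 1 of its 19 peaks were in introns, which made up 77.4% of the window, and none was in coding sequence, which made up 3.79%. Its peak nearest the TSS, shown above, lay in intron 1 in 5 lists.

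*Idh2* (chr7:80094846-80115350, minus strand) was covered by 18.9% and 6.36% in the E14.5 lists, 29.95% and 32.6% in the neonatal lists, 14.6% and 28.8% in the adult lists and 13.9% and 11.8% in the TAC lists. It was the member with the highest coverage in both neonatal lists and in TAC replicate 2. The neonatal mean of 31.3% ± 1.90 (SD, n = 2) exceeded that of E14.5 by 18.7 percentage points, more than the gap of 12.5 points between the E14.5 replicates. The adult replicates, both lower than the neonatal ones, differed by 14.2 points, and both TAC replicates lay below them. The exact permutation p was 0.162. The coding exons were covered by 41.4% and 0% in the E14.5 replicates and by 73.3% and 41.4% in the neonatal ones, so coverage of E14.5 replicate 1 equalled that of neonatal replicate 2.

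**Figure D4:**
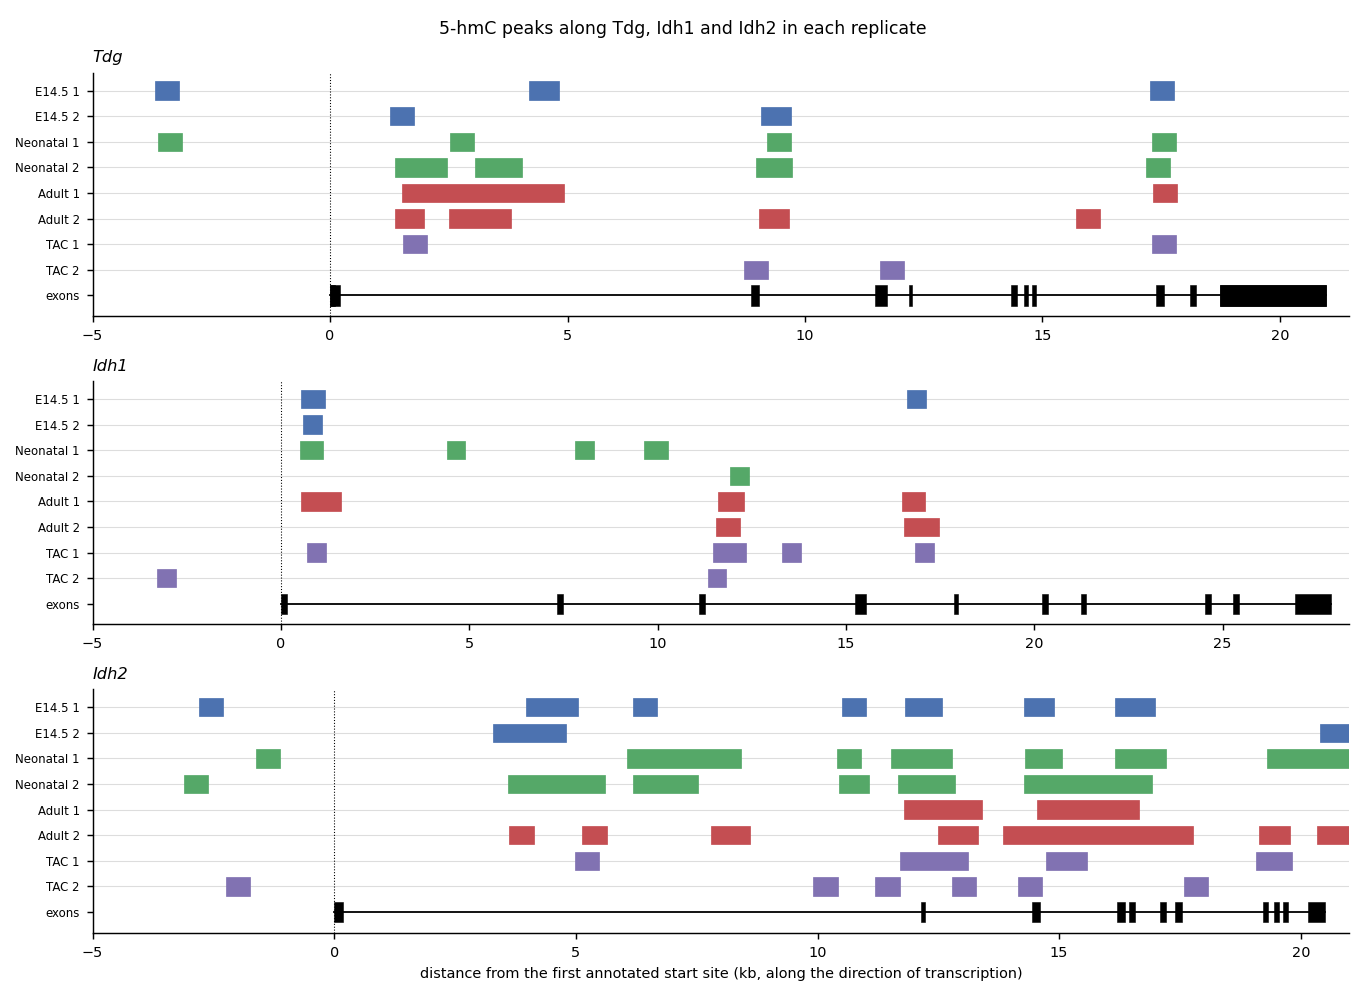
Peaks of each replicate (coloured boxes, 1 row a list) along *Tdg*, *Idh1* and *Idh2*, with exons in black and the distance from the first TSS in kb on the x axis, on a different scale for each gene. *Idh2* is covered between 10 and 18 kb in most lists, and no box touches the dotted line at the TSS in any of these genes.

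Taking the 10 genes by step, both neonatal replicates lay above both E14.5 ones in 4 (*Tet1*, *Tet2*, *Tdg* and *Idh2*), where 21.4% of all windows and 30.1% of the long windows did so, and below them in 1 (*Dnmt1*), against 5.63% and 7.01%. From neonatal to adult, 2 were higher (*Tet1* and *Dnmt3a*), against 13.2% of all and 14% of long windows, and 1 was lower (*Idh2*), against 18% and 27.7%. From E14.5 to adult, 5 were higher (*Tet1*, *Tet3*, *Dnmt3a*, *Tdg* and *Idh1*), against 23.8% of all and 29.5% of long windows, and 0 lower, against 15.2% and 23.5%. No test was possible at single steps, and nothing particular to the enzymes is read from these counts. These steps share the samples of the point between them. From neonatal to adult, 9 of 10 CMC markers were lower in both replicates (median coverage 31.9% and 30.1% against 9.28% and 16.6%), as were 2 of 8 fibroblast, 2 of 6 endothelial and 1 of 4 immune markers, and none was higher. Their part in the members' values was not tested.

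After TAC, 6 members were lower than in the adult (*Tet1*, *Tet3*, *Dnmt1*, *Dnmt3a*, *Tdg* and *Idh2*), against 19.7% of all and 25.3% of long windows, and 0 higher, against 5.25% and 7.31%. The median difference of the members was -3.98 percentage points and that of all windows -0.21. These start from unlike levels: the adult medians were 7.72% and 10.2% for the members and 2.86% and 3.92% for all windows. TAC replicate 2 stood apart from the other lists: it had the lowest value of 6 members, 1 member peak wider than 1 kb against 10 to 27 in the other lists, and 1.27 CpG sites per 100 bp of member peak against 1.62 to 1.81. In TAC replicate 1 alone, 6 members, 26.3% of all and 34.6% of long windows were below both adult replicates. These members are the same 6 by the rule of the count, which requires both TAC replicates to be lower, so this adds no separate evidence. Without TAC replicate 2, *Tet2* and *Idh1* counted as higher after TAC, as did 17.1% of all and 18.6% of long windows. For *Idh1* this was a near tie, 7.18% in TAC replicate 1 against 7.17% in adult replicate 1. Without TAC replicate 1, 9 members were lower, *Dnmt3b* being the exception, as were 36.8% of all and 46.7% of long windows. Dividing each list by its mean over all windows left 4 lower members (*Tet3*, *Dnmt1*, *Dnmt3a* and *Tdg*), and the share of all windows was not computed for this setting. Some markers of other cells were also lower at this step, in both replicates. They were 3 of 4 immune markers (*Ptprc* overlapped), 4 of 6 endothelial and 0 of 8 fibroblast markers. Going the other way, 1 endothelial marker (*Emcn*) was higher in both replicates, and no immune or fibroblast marker was. Of all windows, 19.7% were lower and 5.25% higher. The median coverage of the immune markers was 4.03% and 8.46% in the adult and 0.819% and 0.853% after TAC, and that of the endothelial markers was 6.04% and 5.30% in the adult and 3.94% and 3.96% after TAC. Fibroblast markers had 0% and 1.19% in the adult and 0% and 1.29% after TAC. Of the 10 CMC markers, 2 were lower and 1 was higher in both replicates. Their medians overlapped, with 9.28% and 16.6% in the adult and 11.8% and 7.12% after TAC. Their part in the members' lower values was not tested.

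The members were also compared by regions that both replicates of a point shared by at least 1 bp. Such a region was found in 7 members at E14.5 (not in *Dnmt3b*, *Uhrf1* and *Tdg*), against 46.6% of all and 68.5% of long windows. In neonatal CMCs it was found in 9 (not in *Idh1*), against 51.8% and 73.6%, and in adult CMCs in 8 (not in *Dnmt3b* and *Uhrf1*), against 46.1% and 63.1%. After TAC it was found in 6 (not in *Dnmt1*, *Dnmt3b*, *Uhrf1* and *Tdg*), against 31% and 47.1%. When both peaks had to overlap by 50%, the TAC count fell to 2, and the share of all windows under that rule was not computed. *Tet1*, *Tet2*, *Tet3*, *Dnmt3a* and *Idh2* had a common region at all 4 points, as did 20.7% of all windows. A peak in each of the 8 lists was found in 8 members, all but *Dnmt3b* and *Uhrf1*, against 40.4% of all and 66% of long windows. The common part of the *Tet3* window was 10.2%, 12.6% and 13.0% at E14.5, neonatal and adult and 1.02% after TAC, and that of *Dnmt3a* was 9.34%, 7.78%, 17.9% and 4.75%.

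Over the 8 lists the 10 windows held 686 peaks, of which 338 overlapped a peak of the other replicate. The share that did so ranged from 20% in *Uhrf1* to 58.7% in *Dnmt3a*. By the place of their centre, 569 (82.9%) lay in introns, 49 in coding exons, 30 in untranslated exons, 29 in the 5 kb upstream and 7 (1.02%) from 1 kb before to 100 bp after a TSS. The remaining 2 were centred beyond the 3′ end of *Idh2*. Introns made up between 65.6% (*Uhrf1*) and 86.7% (*Dnmt3a*) of the single windows, so no preference of peaks for introns is read from their share. Of the 17 annotated TSS regions of the 10 genes, only the internal one of *Dnmt3a* was under a peak in more than 2 lists, and those of *Dnmt3b*, *Tdg*, *Idh1* and *Idh2* were under none. The first TSS regions of *Tet2*, *Tet3* and *Dnmt3a*, with 10.6, 10.6 and 10.3 CpG sites per 100 bp, were touched by a peak in 2, 1 and 1 lists. Coding exons of all 10 genes together were covered by 17.9% and 6.06% in the E14.5 lists, 10.7% and 12.8% in the neonatal lists, 21.6% and 24.4% in the adult lists and 16.0% and 2.49% in the TAC lists. Their introns were covered by 13.3% and 8.40%, 13.1% and 15.6%, 15.7% and 19.1%, and 13.4% and 6.60%. The 5 kb upstream varied least, from 3.73% to 5.52%. Peaks carry no strand, and some windows hold part of another gene: *Pikfyve* begins beside *Idh1*, and *Glt8d2*, *Arrdc5* and *Dnmt3aos* reach into those of *Tdg*, *Uhrf1* and *Dnmt3a*.

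The 31 regions under peaks in 6 or more lists were unevenly shared. *Dnmt3a* held 12, *Tet3* 11, *Idh2* 3, *Tet1* and *Tet2* 2 each and *Dnmt1* 1, and the other 4 genes held none. TAC replicate 2 touched 12 of the 31 (38.7%) and the other lists 24 to 30. In *Tet3*, TAC replicate 2 touched 2 of 11, and in *Dnmt3a* 7 of 12. A region 45.4 kb into *Tet3* was missed by both adult replicates and reached in the other 6 lists, and one at 44.1 kb was missed by both TAC replicates only.

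**Figure D5:**
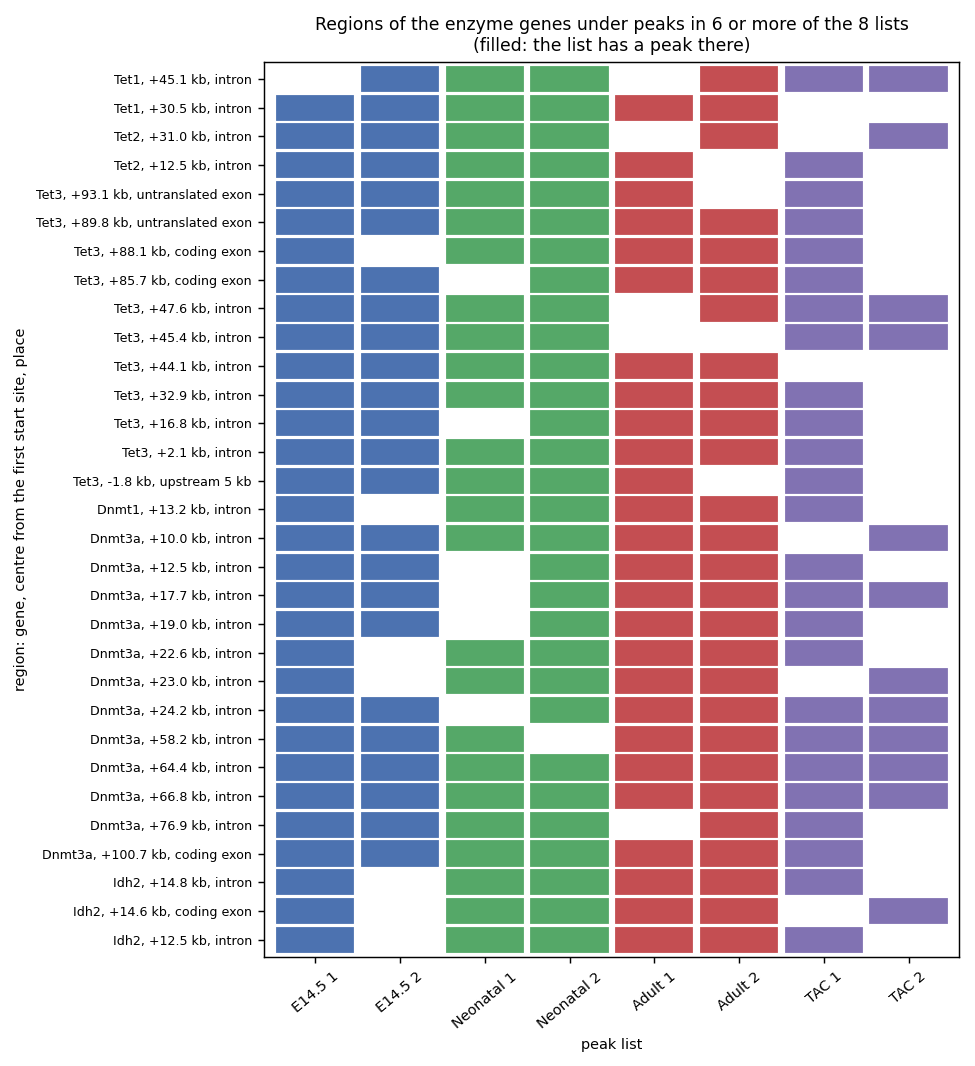
The 31 regions under peaks in 6 or more of the 8 lists (rows, with the distance of their centre from the first TSS) and the lists (columns); a filled cell means that the list has a peak there. Only the *Dnmt3a* regions at 64.4 and 66.8 kb are filled in each column, and the TAC replicate 2 column has 12 filled cells.

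A further 44 genes of the pathway (readers of methyl-CpG, repair proteins, partners of TET proteins, and enzymes of their substrates) were listed by function. Their median coverage lay between 2.76% and 5.31% in the 8 lists, lower than that of the 10 enzymes in each list. The 44 genes were not matched to the enzymes for window length, and its part in this difference was not tested. Both replicates were higher in neonatal than in E14.5 CMCs in 14 of the 44 and lower in 5, where 21.4% and 5.63% of all windows were. They were higher in adult than in neonatal CMCs in 8 and lower in 6 (13.2% and 18% of all windows). They were higher after TAC than in the adult in 2 and lower in 12 (5.25% and 19.7% of all windows, and 7.31% and 25.3% of long ones). No gene of the list passed adjustment over all windows, and 5 of the 44 had an exact permutation p below 0.05, against 7.26% of all windows (adjusted p = 0.611 or 0.612 for each): *Ogt*, *Idh3b*, *Ogdh*, *Fh1* and *Apobec3*.

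*Ogdh*, a subunit of the complex that consumes 2-oxoglutarate, was covered by 2.25% and 0% in the E14.5 lists, 7.80% and 6.08% in the neonatal lists, 14.4% and 21.4% in the adult lists and 13.5% and 7.35% in the TAC lists. *Fh1*, fumarase, whose substrate fumarate competes with 2-oxoglutarate, covered 9.17% and 6.59%, 16.9% and 18.7%, 28.3% and 27.0%, and 13.4% and 6.04%. In both genes each point to the adult lay above the one before. Both TAC replicates of *Fh1* and of *Ogdh* lay below the adult ones.

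*Idh3b*, a subunit of the mitochondrial NAD-dependent isocitrate dehydrogenase, covered 19.9% and 10.3%, 19.5% and 17.5%, 21.4% and 21.8%, and 4.94% and 3.40%, the TAC replicates being its lowest. *Ogt*, the O-GlcNAc transferase that binds TET proteins, was covered in the neonatal (3.49% and 4.47%) and adult lists (1.02% and 1.28%) and in no other. *Apobec3*, a cytidine deaminase, had no peak in neonatal CMCs and 2.38% to 4.77% in the other lists. The highest mean of the list belonged to *Zbtb38*, a zinc finger protein that binds methylated DNA, with 31.9% and 19.1%, 37.0% and 53.1%, 52.7% and 46.4%, and 38.4% and 16.7%. The lowest belonged to *Zbtb33*, the related Kaiso protein, which had no peak in any list.

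The genes whose coverage over the 8 lists was nearest to that of each TET gene, by Euclidean distance among windows of 0.5 to 2 times its length, were also taken. For *Tet1* these were *Mrtfb*, *Usp48* and *Prkar2a* among 4656 windows, at distances of 2.14, 2.15 and 2.81 percentage points. For *Tet2* they were *4930503B20Rik*, *Masp1* and *Ralgps2* among 4746, at 2.86, 2.99 and 3.10 points. For *Tet3* they were *Tfeb*, *Kif13a* and *Gtf2i* among 4169, at 8.06, 9.76 and 9.83 points. *Usp48* rose from 4.06% and 4.79% at E14.5 to 9.36% and 9.71% in the adult, and *Tfeb* covered 30.8% and 32.2% in the adult and 23.3% and 14.4% after TAC.

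The labelled cell type was compared with marker lists. CMC marker windows had a median coverage between 7.12% (TAC replicate 2) and 31.9% (neonatal replicate 1), lower in the adult than in the neonatal lists as given above, and 9 of 10 had a peak in each list. Fibroblast markers (8 genes) had a median of 0% to 2.28%. *Col3a1* was under no peak in any list, while *Col1a1* and *Col1a2* had a peak in each list and *Vim* in 6. Endothelial markers (6 genes) had 3.43% to 9.53% and immune markers 0.819% to 8.46%, so these lists were not at 0.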

How the data were processed

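5-hmC was profiled by hMeDIP in 8 samples (4 points, 2 replicates). The authors aligned reads to mm10 with BWA 0.7.4-r385, marked duplicates with Picard, removed reads with a mapping quality below 10 and called peaks in each replicate against input with HOMER 4.5 in histone mode. The deposited lists give each peak's chromosome, start and end, and a score that is 1 for each peak. Read depth is not in the lists, so no counting interval was possible. Per the file headers, HOMER scaled the immunoprecipitate to its control in 4 lists (both TAC replicates, and replicate 2 of the neonatal and adult points) and the control to the immunoprecipitate in the other 4. This differs between replicates of 2 points and its effect was not tested.

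Windows came from curated RefSeq transcripts (annotation release 108, GRCm38.p6). Percent covered was computed with Python 3.11.15 and numpy 2.4.6, and the code was tested on simulated peak lists against bedtools 2.31.1. Samples were grouped by point. Tests were an exact permutation test over divisions into pairs, with Benjamini-Hochberg adjustment over all windows, and limma 3.58.1 on log2(percent + 1). Named genes were all members, pathway genes with p below 0.05 or the highest or lowest mean, and the 3 genes nearest to each TET gene. Members, lists and rules were chosen with earlier results of these data known. The sh-control and input samples among the 19 of the series were not analysed here. Alternatives were peak centres per 10 kb, equal numbers of peaks, scaling by the list mean, other windows and annotation, other overlap rules, each replicate left out and a replicate block.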

Additional observations from a re-analysis of the deposited data

How the results depend on the processing

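No member had an adjusted p below 0.05 over the 4 points under any alternative run, the lowest adjusted p of a member being 0.384 (limma). In the exact tests this outcome could hardly differ, because passing adjustment needs many windows at the smallest possible p. It is therefore not read as stability. Unadjusted, between 0 and 2 members had a p below 0.05, not always the same ones (*Tdg*, *Tet1* or *Dnmt1*). With the replicate number as a replicate block, 0 members passed and 0 had an unadjusted p below 0.05 over 24 divisions, whose smallest p is 0.0417; in limma with the block, 1 did, as did 10.3% of all windows. The numbers pair no samples by the labels, and the deviations of same-numbered samples correlated between -0.181 and 0.181. The counts of members that did not overlap between points depended on the setting. By peak centres per 10 kb, 2 were higher and 0 lower in neonatal than in E14.5 CMCs and 0 lower in adult than in neonatal CMCs. With 104215 peaks drawn from each list, 3 were higher (*Tet2*, *Dnmt3a* and *Idh2*) and 0 lower in neonatal CMCs, and 5 were higher and 0 lower in the adult. Relative to the list mean, 2 were higher in neonatal CMCs (*Tdg* and *Idh2*) and 2 lower in the adult (*Tet2* and *Idh2*). With the gene span alone 0 were lower in neonatal CMCs. Leaving out a replicate loosens the rule to 1 sample against 2 at the steps of its point. It gave 4 to 8 higher and 1 to 3 lower in neonatal CMCs, 2 to 5 higher and 1 to 3 lower in the adult, and 0 to 2 higher and 6 to 9 lower after TAC. Common regions after TAC were found in 2 members when peaks had to overlap by 50%. Leaving out a replicate, members with a peak in the other numbered 9 to 10 at E14.5, 10 in neonatal, 9 to 10 in adult and 9 in TAC CMCs. The causes were not tested. Shares of all windows under these settings were not computed for non-overlapping members or common regions. The exception is the step to TAC without 1 TAC replicate, given above. Nothing particular to the members is read from these counts. Peaks without height or depth limit these results: a member without a peak may have carried 5-hmC below the caller's threshold.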
